A study of Mus musculus with 8 samples.

Results

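The nuclear bile acid receptor gene Nr1h4, its paralogue Nr1h5 and 4 genes of the same system, Nr0b2, Slc51a, Slc51b and Gpbar1, were followed in hepatic stellate cells with and without deletion of the LIM homeobox gene Lhx2. These 6 of the 19938 genes measured were taken by their symbols, 1 probe set each, and they were selected on the strong fall of both receptors in the knockout cells (differences of log2 expression). The values of that contrast are therefore given for the 6 genes as a description, with no test. Stellate cells are pericytes of the liver sinusoid that store retinoids and were sorted from liver by retinoid autofluorescence. The knockout group held 4 arrays (replicates 5 to 8) from Mx1Cre+ mice with floxed Lhx2, and the control group held 4 arrays (replicates 1 to 4) from Lhx2 floxed mice without Cre. The background was C57BL/6J throughout, and mice of both groups were given poly(I:C), a synthetic double-stranded RNA and inducer of interferon, 3 times; cells were isolated 2 weeks later. The Mx1 promoter responds to interferon in many cell types, so loss of Lhx2 in stellate cells, its loss in other cells and the presence of Cre cannot be told apart. The labels give no age and no number of animals for the arrays, so the errors describe how these arrays vary, and part or all of that can be technical.

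Nr1h4 encodes the farnesoid X receptor (FXR), a nuclear receptor that binds bile acids and acts on DNA as a heterodimer with a retinoid X receptor. In hepatocytes and in the intestine it induces Nr0b2, which encodes the corepressor SHP, and both subunits of the bile acid exporter OSTα–OSTβ, Slc51a and Slc51b, while synthesis of bile acids through Cyp7a1 is held down. Nr1h5 encodes FXRβ, which is a working gene in mice and a pseudogene in humans, and lanosterol, a sterol intermediate, has been described as an activator of the mouse protein. Gpbar1 encodes TGR5, a membrane receptor of bile acids that raises cyclic AMP and is known in liver mainly from sinusoidal endothelial cells, Kupffer cells and cholangiocytes. FXR agonists have been studied as antifibrotic compounds in liver.

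The promoters of both receptors and of the classical target Slc51b are shown because the receptors moved together and Slc51b is a gene that FXR is known to induce. Each sequence, from RefSeq on GRCm38.p6, runs from 250 bases before the annotated start site to 50 after it, 5′ to 3′, and capitals mark the motif matches described after them. All 6 genes had 1 such window in the table.
Nr1h4, chr10:89506609-89506908, minus strand: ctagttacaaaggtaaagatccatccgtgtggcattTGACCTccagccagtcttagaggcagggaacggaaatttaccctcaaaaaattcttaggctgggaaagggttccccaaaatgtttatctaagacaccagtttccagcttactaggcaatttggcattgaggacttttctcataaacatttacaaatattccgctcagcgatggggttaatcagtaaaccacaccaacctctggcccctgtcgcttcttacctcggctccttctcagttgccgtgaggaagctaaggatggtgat
Nr1h5, chr3:102964084-102964383, minus strand: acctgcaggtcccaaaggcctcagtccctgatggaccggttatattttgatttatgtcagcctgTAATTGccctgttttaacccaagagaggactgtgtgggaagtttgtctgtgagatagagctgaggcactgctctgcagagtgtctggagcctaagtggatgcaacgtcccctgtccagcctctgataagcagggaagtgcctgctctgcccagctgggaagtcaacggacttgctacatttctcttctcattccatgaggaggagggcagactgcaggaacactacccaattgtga
Slc51b, chr9:65422724-65423023, minus strand: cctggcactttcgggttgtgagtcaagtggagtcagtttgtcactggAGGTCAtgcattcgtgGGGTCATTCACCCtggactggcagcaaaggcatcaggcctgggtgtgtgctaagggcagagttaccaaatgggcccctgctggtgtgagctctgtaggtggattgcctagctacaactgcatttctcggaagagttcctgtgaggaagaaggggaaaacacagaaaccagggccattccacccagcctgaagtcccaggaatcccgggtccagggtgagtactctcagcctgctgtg
The nuclear receptor half-site AGGTCA, read on both strands, occurred once in the windows of Nr1h4 (on the reverse strand, starting 214 bases before the start site), Slc51a and Slc51b, and in 16.3% of all 32851 windows of this length. The inverted repeat AGGTCANTGACCT, the IR-1 element that FXR binds with RXR, had no exact match in the 6 windows and was exact in 0.00913% of all windows. With up to 3 mismatches, which 11.4% of all windows hold, it matched once in Slc51b (starting 187 bases before the start site) and once in Slc51a (79 bases before it), apart from their half-sites. Of the LIM homeobox cores TAATTA and TAATTG, read on both strands, TAATTG occurred once in the Nr1h5 window, 186 bases before the start site, and neither occurred in the other windows. These cores were held by 5.29% and 8% of all windows. The matches describe letters in a short window and do not show binding.

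Nr1h4 and Nr1h5 mRNA were lower in every knockout array than in every control array, while Nr0b2, Slc51a, Slc51b and Gpbar1 overlapped between the groups. All values are deposited log2 expression values, and levels of different genes, which rest on different probes, are not set against each other.

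Nr1h4 had log2 levels of 10.68, 10.85, 10.85 and 10.70 in knockout arrays 5, 6, 7 and 8, against 12.22, 12.34, 12.34 and 12.36 in control arrays 1, 2, 3 and 4. The highest knockout array lay 1.37 below the lowest control array. The mean was 10.77 ± 0.09 in the knockout group and 12.32 ± 0.06 in the control group (SD, n = 4 each), a log2 difference of -1.55 (SE 0.06). The knockout level was 34.3% of the control level. The fall ranked 25th among the 19938 genes, a description that the choice of the gene already fixes in part.

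Nr1h5 had log2 levels of 9.38, 9.92, 9.90 and 10.09 in knockout arrays 5 to 8, against 12.00, 12.18, 11.82 and 11.89 in control arrays 1 to 4. The groups were 1.72 apart at their nearest arrays, and knockout 5 stood below the other knockout arrays. The group means were 9.82 ± 0.31 in the knockout and 11.97 ± 0.16 in the control (SD, n = 4 each). The log2 difference was -2.15 (SE 0.15), which left 22.6% of the control level and ranked 9th among the falls of all genes.

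Set against the mean of the control arrays, the change of Nr1h5 was the greater in each knockout array. In knockout 5 it was -2.59 for Nr1h5 and -1.64 for Nr1h4, in knockout 6 -2.05 and -1.47, in knockout 7 -2.07 and -1.47, and in knockout 8 -1.88 and -1.61. Lhx2 itself, the deleted gene, changed by -0.86, -0.71, -0.60 and -0.46 in the same 4 arrays. Knockout 5 was thus the lowest array for all 3 genes, and knockout 8 was the highest knockout array for Lhx2 and Nr1h5 but the second lowest for Nr1h4. Lhx2 averaged 11.29 ± 0.17 in the knockout group and 11.95 ± 0.08 in the control group (SD, n = 4 each; log2 difference -0.66, SE 0.09, limma adjusted p = 0.00136). Its probes may lie outside the deleted part, so this level does not measure the deletion.

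The target genes of FXR among the 6 were dim in both groups. As a guide to unexpressed levels, 1190 olfactory and vomeronasal receptor genes had a median log2 level of 5.40 and a 95th percentile of 6.77. Nr0b2, the corepressor SHP, had log2 levels of 6.27, 6.39, 6.30 and 6.45 in knockout arrays 5 to 8, against 6.75, 6.35, 6.23 and 6.29 in control arrays 1 to 4. All 8 values were under that percentile, and the highest was that of control 1, the array with the highest mean of hepatocyte markers (11.11). Knockout 7 and control 3, with marker means of 11.09 and 10.93, had 6.30 and 6.23, the latter the lowest of all arrays. The part of hepatocyte transcripts in the Nr0b2 level was not tested. The difference was -0.05 (SE 0.11), and it was 0.06 without control 1 and control 4. Slc51a, the larger subunit of the exporter, had 6.94, 6.70, 6.43 and 6.54 in the knockout arrays, against 6.85, 6.81, 6.50 and 6.68 in the control arrays. These values straddled the percentile in both groups, 3 of 8 lying above it, and the difference was -0.06 (SE 0.12). Slc51b, the single-span partner subunit without which Slc51a does not reach the membrane, had 5.86, 5.81, 5.77 and 5.82 in the knockout arrays, against 5.87, 5.82, 5.84 and 5.72 in the control arrays. It varied by 0.14 over all 8 arrays, with a difference of 0.00 (SE 0.05). With control levels in or near the range of the olfactory and vomeronasal receptor genes, a fall of these 3 genes could go undetected.

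Gpbar1, the membrane receptor, lay above the guide level in all 8 arrays. Its log2 levels were 8.18, 8.08, 8.17 and 8.05 in knockout arrays 5 to 8, against 8.31, 8.11, 8.01 and 8.01 in control arrays 1 to 4. The knockout arrays all fell inside the range of the control arrays. The means were 8.12 ± 0.07 in the knockout and 8.11 ± 0.14 in the control (SD, n = 4 each), a difference of 0.01 (SE 0.08). Among the cell types known for Gpbar1, the mean of 9 Kupffer cell markers was 7.25 to 7.65 in knockout arrays and 7.34 to 8.20 in control arrays. The mean of 12 sinusoidal endothelial markers was 8.82 to 10.15 and 8.81 to 11.35, and that of 6 cholangiocyte markers 6.63 to 6.81 and 6.61 to 6.80. Control 1, where Gpbar1 was highest, had the lowest endothelial mean, with a Kupffer mean of 7.74 and a cholangiocyte mean of 6.80. Knockout 5, with the next highest Gpbar1 level (8.18), had the highest cholangiocyte mean of all arrays (6.81). Knockout 7, with a Gpbar1 level of 8.17, had a cholangiocyte mean of 6.63. The part of such cells in the Gpbar1 level was not tested. In bulk samples, a change of level per cell and a change in the share of cells that express a gene cannot be told apart.

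Of the 6 genes, 2 had groups that did not overlap, both lower in the knockout. Over all genes the arrays of the groups did not overlap, with the knockout lower, for 6.32%. Because the fall of the receptors was the reason for choosing them, nothing is read from this count. The plot of the 6 genes by array shows the separation of both receptors beside the overlap of the other members.

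**Figure D1:**
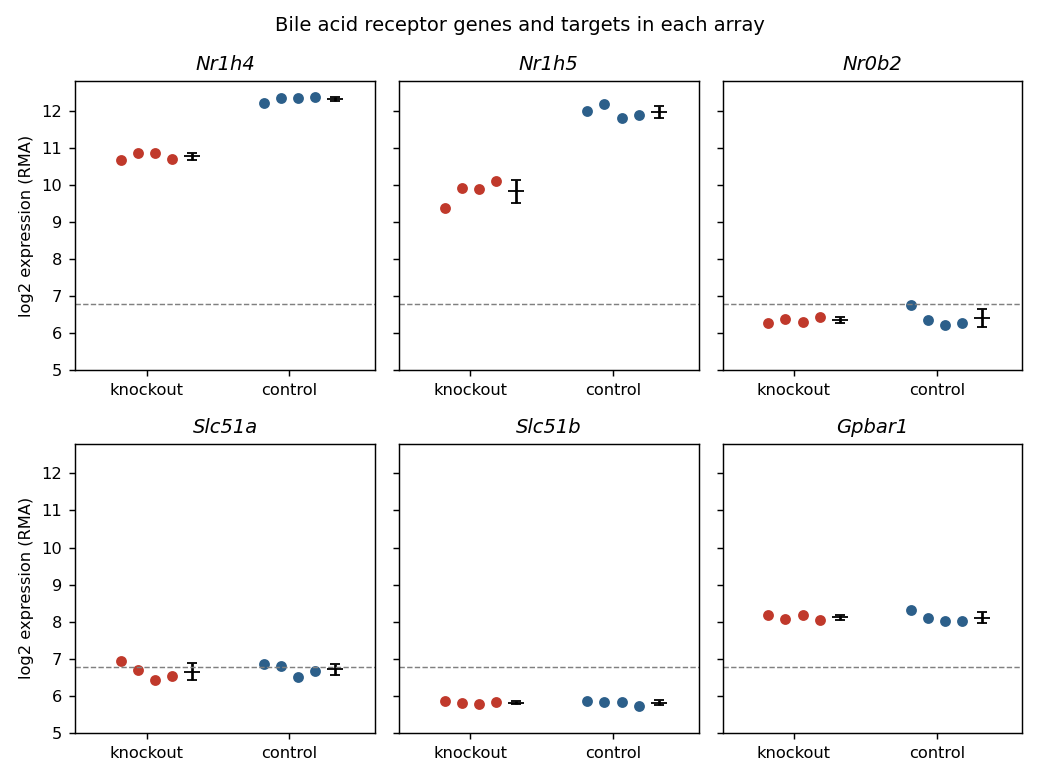
Deposited log2 expression (vertical axis, RMA) of the 6 genes in each knockout array (red, replicates 5 to 8 from left to right) and each control array (blue, replicates 1 to 4), with the group mean and SD in black and a dashed line at 6.77, the 95th percentile of 1190 olfactory and vomeronasal receptor genes. Nr1h4 and Nr1h5 separate the groups by 1.37 and 1.72 at their nearest arrays, and the other 4 genes overlap.

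Hepatocytes express FXR strongly, and their transcripts were present in the arrays of both groups. Alb, serum albumin, had a log2 level of 13.04 in the knockout group and 13.00 in the control group. The mean of 12 measured hepatocyte markers ranged from 9.45 to 11.09 over the knockout arrays and from 8.97 to 11.11 over the control arrays, and 0 of the 12 passed the test in limma (1 at an unadjusted p under 0.05). Of all 19938 genes, 3484 had an unadjusted p under 0.05, and 7.38% passed at an adjusted p under 0.05. Among the control arrays Nr1h4 was highest, at 12.36, in control 4, which had the lowest hepatocyte marker mean (8.97), and lowest, at 12.22, in control 1, which had the highest (11.11). Controls 2 and 3, with marker means of 9.83 and 10.93, were both at 12.34. Among the knockout arrays Nr1h4 was 10.85 both in knockout 7, with the highest marker mean (11.09), and in knockout 6, with the lowest (9.45). The part of hepatocyte transcripts in the receptor levels was not tested.

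The mean of 12 sinusoidal endothelial markers ranged from 8.82 to 10.15 over the knockout arrays and from 8.81 to 11.35 over the control arrays. Within the knockout group both Nr1h5 and the endothelial mean increased in the order knockout 5, 7, 6 and 8. Among the control arrays Nr1h5 was 11.89 in control 4, which had the highest endothelial mean (11.35). In control 1, which had the lowest (8.81), Nr1h5 was 12.00. The highest Nr1h5 level of the control arrays, 12.18, was in control 2, with an endothelial mean of 10.93. The lowest, 11.82, was in control 3, with an endothelial mean of 9.81. The part of endothelial transcripts in the spread of Nr1h5 was not tested. Leaving out both control 1, highest in the hepatocyte mean, and control 4, highest in the endothelial mean, the difference was -1.57 for Nr1h4 and -2.18 for Nr1h5. Markers of stellate cells were bright in all arrays, with a mean over 11 genes of 13.12 to 13.14 in the knockout group and 13.20 to 13.28 in the control group. Of these, 3 were lower in the knockout past the limma threshold, namely Reln, Hand2 and Hgf, and 7 of the 11 had an unadjusted p under 0.05. Among all 19938 genes 3.63% were lower and 3.76% higher past that threshold, and 3484 had an unadjusted p under 0.05. Among 11 portal fibroblast markers 3 were higher (Cd34, Eln and Dpt), with a mean of 8.16 to 8.35 in knockout arrays and 7.66 to 7.76 in control arrays (5 of the 11 at an unadjusted p under 0.05). Both the stellate mean, lower in the knockout like the receptors, and the portal fibroblast mean, higher in the knockout, separated the groups without overlap, and the part of either in the fall of the receptors was not tested. Lrat, lecithin retinol acyltransferase, was at 13.75 in the knockout and 13.65 in the control group. Of the 12 endothelial markers 1, Clec4g, was lower in the knockout (2 at an unadjusted p under 0.05), and Stab1, a scavenger receptor of these cells, had 8.87 in the knockout and 9.67 in the control group. Of 9 Kupffer cell markers 1, Cd68, was lower (4 of the 9 at an unadjusted p under 0.05). Clec4f, a lectin of Kupffer cells, was at 7.01 to 7.15 in knockout arrays and 7.30 to 7.91 in control arrays, without overlap, a difference of -0.45 (SE 0.12) that missed the limma threshold (adjusted p = 0.0517) and passed it without control 1 and control 4 (-0.60, adjusted p = 0.0400). Of 6 cholangiocyte and 7 lymphocyte markers 0 passed (0 at an unadjusted p under 0.05). The bile duct keratin Krt19 had 6.64 in the knockout and 6.63 in the control group, under the guide level.

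**Figure D2:**
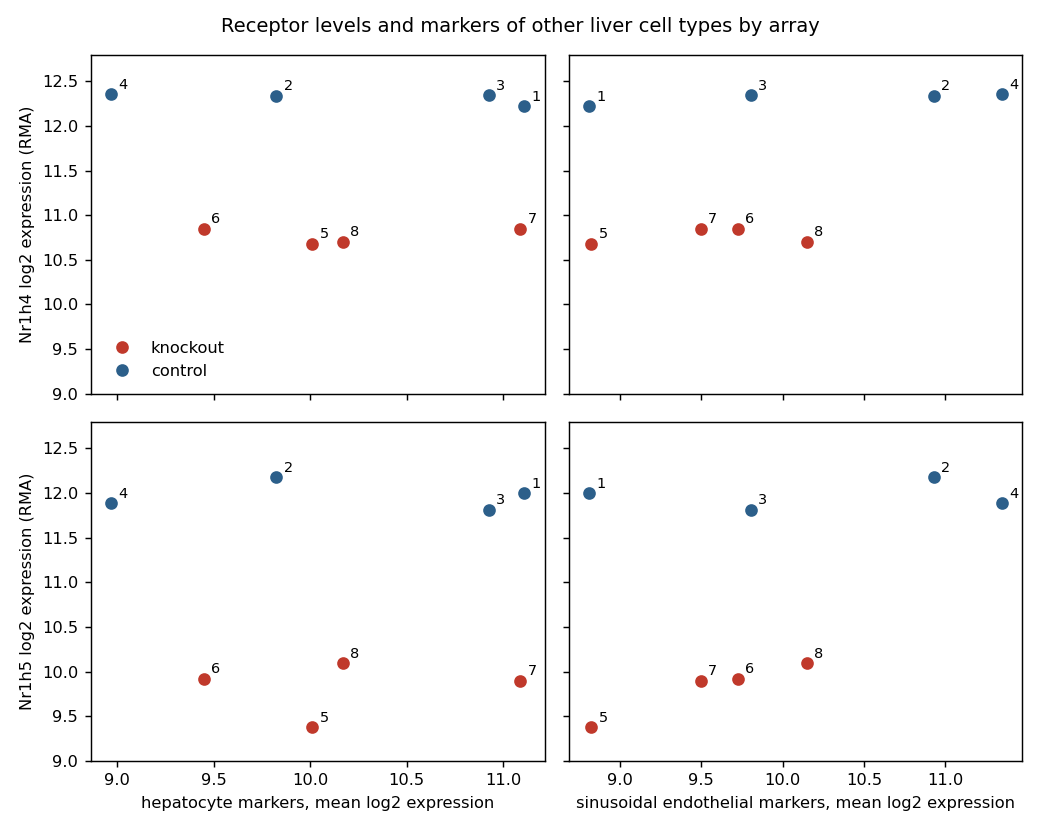
Log2 expression of Nr1h4 (upper row) and Nr1h5 (lower row) against the mean log2 expression of 12 hepatocyte markers (left) and 12 sinusoidal endothelial markers (right), 1 point for each array, numbered by replicate, knockout in red and control in blue. All knockout points lie below all control points in each panel, and the part of the markers in the receptor levels was not tested.

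The genes whose values over the 8 arrays were most like those of each receptor were found by the root mean square distance of log2 values after the control mean of each gene was subtracted. For Nr1h4 the 5 nearest were Itga2b, an integrin chain (distance 0.10), Cdh18, a cadherin (0.12), Fgfr2, a fibroblast growth factor receptor (0.13), Piezo2, a mechanically gated channel (0.13), and Esam, an adhesion molecule of endothelium (0.13). Their log2 differences ran from -1.41 for Fgfr2 to -1.49 for Piezo2. For Nr1h5 they were Epor, the erythropoietin receptor (distance 0.21), Galnt14, a glycosyltransferase (0.22), Grhl3, a transcription factor (0.25), Gdf2, the ligand BMP9 (0.25), and Dcdc2a, a doublecortin-domain protein (0.28). Their log2 differences lay between -2.01 for Grhl3 and -2.47 for Dcdc2a. Epor, Grhl3 and Dcdc2a, like Nr1h5, had their lowest values in knockout 5, while Galnt14 was lowest in knockout 6 and Gdf2 in knockout 8. The distance between Nr1h4 and Nr1h5 themselves was 0.47, so each receptor was nearer to these genes than to its paralogue. Likeness over 8 arrays in 2 groups rests mainly on the group difference and is a description.

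**Figure D3:**
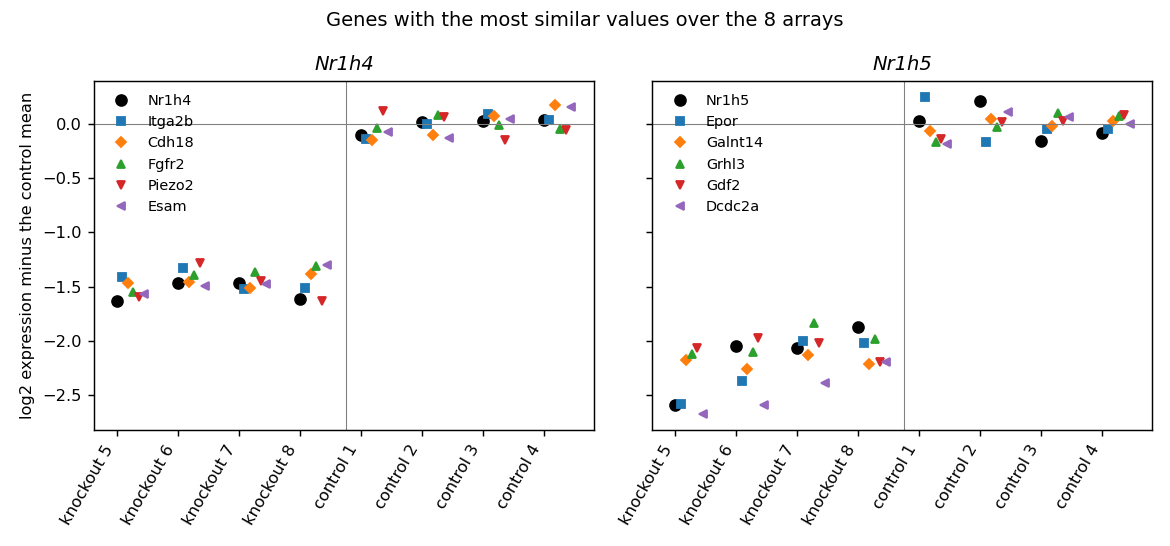
Log2 expression minus the control mean (vertical axis) in each of the 8 arrays for Nr1h4 (left, black circles) and Nr1h5 (right, black circles) with the 5 genes nearest to each, slightly offset sideways. In the knockout arrays Nr1h4 lies between -1.64 and -1.47, and Nr1h5 between -2.59 in knockout 5 and -1.88 in knockout 8.

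Around the receptors, most genes of bile acid biology did not pass the test in the knockout. The same is true of genes at large, of which 7.38% passed, so nothing particular to bile acid genes is read from it. In sterol synthesis 5 of 9 genes up to lanosterol and 6 of 8 after it rose. The lists hold none of the 6 genes, and their other members were tested with limma over all 19938 genes at an adjusted p under 0.05. At that threshold 3.76% of all genes were higher and 3.63% lower (7.38% in all), and the median difference of all genes was -0.02. An unadjusted p under 0.05 was reached by 3484 of the 19938 genes. The mean level was under the guide of 6.77 for 2 of 15 partners of nuclear receptors and 2 of 18 FXR targets. It was so for 4 of 19 synthesis genes, 5 of 12 transporters and 2 of 7 other receptors. Under it too were 3 of 11 partners of SHP and 2 of 24 cyclic AMP genes. A fall of such genes could go undetected.

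Of 15 measured partners and coregulators of nuclear receptors, 1 was lower and 14 did not pass, with a list median of 0.05; 0 were higher in limma (1 at an unadjusted p under 0.05). The gene that fell was Rxra, the main retinoid X receptor of liver and the heterodimer partner of FXR. Its log2 levels were 11.77, 11.77, 11.74 and 11.83 in knockout arrays 5 to 8, against 12.05, 11.95, 12.13 and 12.01 in control arrays 1 to 4. The groups did not overlap, but the difference of -0.26 was small (SE 0.05, limma adjusted p = 0.0187). Its call was lost without knockout 5, 6 or 7 (adjusted p up to 0.0612), and when control 1 and control 4 were both left out the difference was -0.27 with an adjusted p of 0.123. The paralogues Rxrb and Rxrg had differences of 0.02 and 0.00. Rxrg was under the guide level, with a mean of 6.55 in each group.

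Of 18 measured target genes of FXR outside the 6, known mostly from liver and intestine, 1 fell, 1 rose and 16 did not pass (list median -0.08). At an unadjusted p under 0.05, 4 of the 18 were lower and 2 higher, against 3484 of all 19938 genes in either direction. Abcb11, the bile salt export pump of the hepatocyte canaliculus, had log2 levels of 7.69, 7.75, 8.50 and 7.83 in knockout arrays 5 to 8, against 9.60, 8.78, 8.99 and 8.79 in control arrays 1 to 4. Every knockout array was below every control array, with a difference of -1.10 (SE 0.22, limma adjusted p = 0.0152). Knockout 7, where Abcb11 was highest of the knockout arrays, and control 1, where it was highest of all, had the highest hepatocyte marker means of their groups. Control 4 had the lowest hepatocyte marker mean of all arrays (8.97), and its Abcb11 level of 8.79 was above that of knockout 7 (8.50, with a marker mean of 11.09). The part of hepatocyte transcripts in the Abcb11 difference was not tested. The call was lost without knockout 6 (adjusted p = 0.0535) and without control 1 and control 4 (difference -0.94, adjusted p = 0.0716). Sdc1, the proteoglycan syndecan 1, was the gene that rose, by 0.68 (SE 0.10, adjusted p = 0.00221), with 8.70 to 8.99 in knockout arrays and 7.96 to 8.38 in control arrays. The other canalicular transporters of the list, Abcb4 and Abcc2, had differences of -0.28 (SE 0.18) and 0.01 (SE 0.35). Fgf15 and Fabp6, targets in the ileum, had -0.06 each. Fabp6 was under the guide level, at 5.48 in the knockout and 5.54 in the control group.

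Of 19 genes of bile acid synthesis and conjugation, 0 passed in limma (1 at an unadjusted p under 0.05), with a median of -0.01. The largest difference was that of Cyp7b1, an oxysterol hydroxylase, at 0.39 (SE 0.31, adjusted p = 0.654). Cyp7a1, the rate-limiting enzyme that FXR and SHP hold down in hepatocytes, had a difference of -0.01 (SE 0.11). Its means were 5.82 in the knockout and 5.83 in the control group, under the guide level of 6.77. A fall there could go undetected, and the size of a rise would be uncertain. Of 12 bile acid and sterol transporters 1 was lower, Atp8b1, a phospholipid flippase of the canaliculus, at -0.19 (SE 0.05, limma adjusted p = 0.0409), and 0 were higher. At an unadjusted p under 0.05, 2 of the 12 were lower and 1 higher. The call of Atp8b1 was lost when any of the 8 arrays was left out (adjusted p up to 0.126). Slc10a1, the sodium-dependent bile acid importer of hepatocytes, had -0.32 (SE 0.38).

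Of 7 measured receptors that also answer to bile acids or oxysterols, Chrm2, the muscarinic acetylcholine receptor M2, rose and 6 did not pass, with 0 lower (0 at an unadjusted p under 0.05). Chrm2 had log2 levels of 8.38, 9.49, 9.22 and 9.27 in knockout arrays 5 to 8, against 6.91, 6.74, 6.69 and 6.86 in control arrays 1 to 4. The knockout arrays were all above the control arrays, by 2.29 on average (SE 0.20, limma adjusted p = 0.000117). The control level was close to the guide level of 6.77, so the size of the rise is uncertain. Nr1h3, the oxysterol receptor LXRα of the same nuclear receptor subfamily as Nr1h4 and Nr1h5, had a difference of 0.03 (SE 0.08). The vitamin D receptor Vdr had one of 0.05 (SE 0.08). Vdr was under the guide level, at 6.60 in the knockout and 6.54 in the control group. Of 11 partners of SHP and of the FGF15 axis, Mafg, a small Maf protein and a repressor of bile acid synthesis genes in hepatocytes, was lower by a log2 difference of -0.29 (SE 0.06, adjusted p = 0.0127), and 10 did not pass. None of these 11 was higher (0 at an unadjusted p under 0.05). Without control 1 and control 4, Mafg had a difference of -0.29 and an adjusted p of 0.103.

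Lanosterol, described as an activator of mouse FXRβ, is made by the mevalonate and squalene enzymes and used up on the way to cholesterol. Of 9 measured genes that lead to lanosterol, 5 rose and 4 did not pass, with a list median of 0.48. They were Fdft1, squalene synthase (0.89, SE 0.15), Sqle, squalene epoxidase (0.82, SE 0.17), Lss, lanosterol synthase (0.70, SE 0.12), Fdps (0.48, SE 0.09) and Pmvk (0.31, SE 0.05). Of 8 genes that turn lanosterol into cholesterol, 6 rose and 2 did not pass, with a median of 0.57. The largest rise was that of Hsd17b7, a sterol ketoreductase (1.26, SE 0.12, limma adjusted p = 0.000152), which had 9.59, 9.82, 10.00 and 10.13 in knockout arrays 5 to 8, against 8.70, 8.55, 8.78 and 8.47 in control arrays 1 to 4. Cyp51, the demethylase that acts on lanosterol itself, rose by 0.70 (SE 0.14, adjusted p = 0.0173), a call that was lost without knockout 8 (adjusted p = 0.0537) or control 2 (0.0571). Msmo1 and Nsdhl rose by 0.62 (SE 0.09) and 0.58 (SE 0.10), and Sc5d and Dhcr7 by 0.55 (SE 0.11) and 0.52 (SE 0.11). Sqle was not past the threshold without control 2 (adjusted p = 0.0504), Sc5d without knockout 8 or control 2 (up to 0.0528) and Dhcr7 without knockout 5, 7 or 8 (up to 0.0644). Without control 1 and control 4, only 2 genes of each list passed, Fdft1 and Sqle in the first and Hsd17b7 and Msmo1 in the second. The genes that lost their call there kept positive differences, 0.68 for Lss, 0.47 for Fdps and 0.25 for Pmvk in the first list, and 0.74 for Cyp51, 0.62 for Nsdhl, 0.52 for Sc5d and 0.56 for Dhcr7 in the second, with adjusted p from 0.0554 to 0.144 in that fit of fewer arrays. Without knockout 8, 3 genes of the second list passed. Tm7sf2 and Ebp, the 2 of the second list that did not pass with all arrays, had differences of -0.08 (SE 0.08) and -0.04 (SE 0.14).

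Downstream of Gpbar1, some cyclic AMP genes rose and some fell. Among 24 genes the counts were 3 higher, 2 lower and 19 not past the threshold, with a median of -0.03. Prkar2b, a regulatory subunit of protein kinase A, rose by 0.79 (SE 0.09, adjusted p = 0.000522), with 9.96 to 10.21 in knockout arrays and 9.11 to 9.49 in control arrays. The adenylyl cyclases Adcy2 and Adcy6 rose by 0.46 (SE 0.08) and 0.39 (SE 0.08), and Adcy5, another cyclase, fell by 0.32 (SE 0.07, adjusted p = 0.0167). Pde4d, a cyclic AMP phosphodiesterase, fell by 0.44 (SE 0.11, limma adjusted p = 0.0396), with groups that overlapped. Its call was lost without knockout 5, 6 or 7 or control 1, 2 or 4 (adjusted p up to 0.119). The call was also lost when the probe sets of Pde4d were averaged (-0.39, limma adjusted p = 0.0583). Without control 1 and control 4 its difference was -0.33 (limma adjusted p = 0.276). Adcy6 lost its call without knockout 6, knockout 7 or control 2 (adjusted p up to 0.0601). Without control 1 and control 4, 2 genes of this list were higher and 0 lower in limma.

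**Figure D4:**
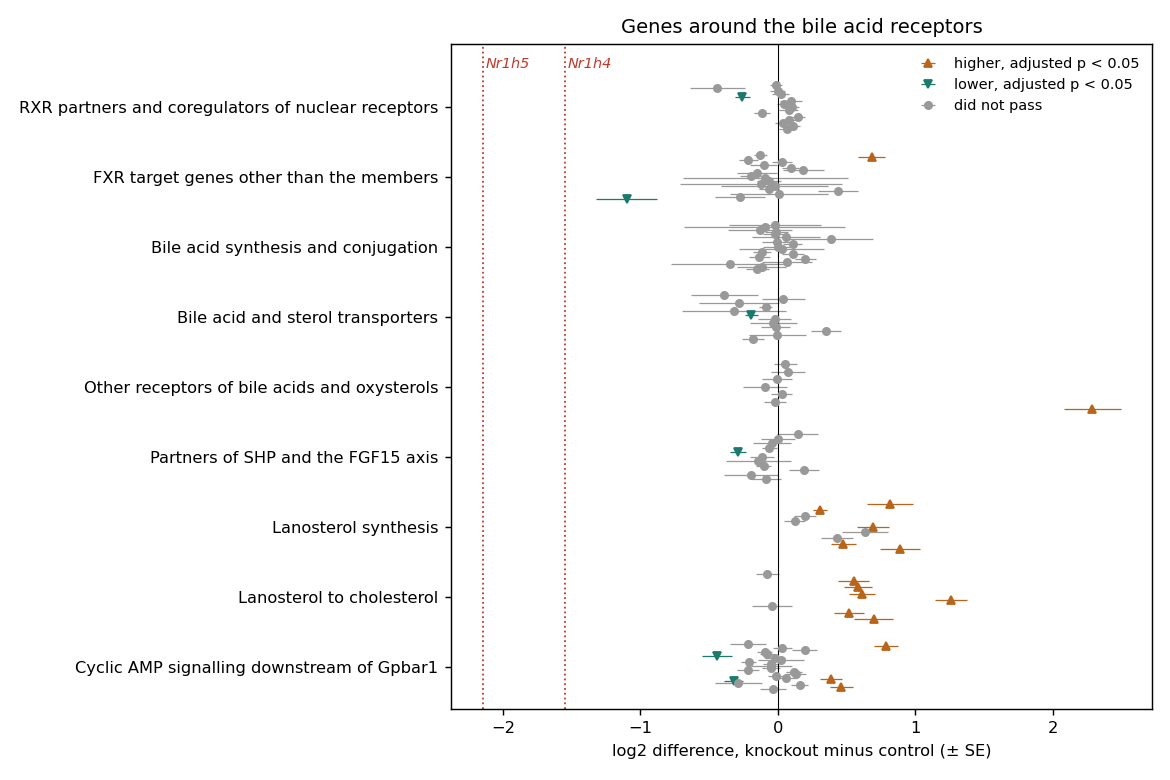
Log2 difference, knockout minus control, with its standard error (horizontal axis) for each measured gene of the 9 lists. Triangles mark genes past an adjusted p of 0.05 in limma, upward for higher and downward for lower, grey circles genes that did not pass, and dotted lines the differences of Nr1h5 (-2.15) and Nr1h4 (-1.55), beyond which no gene of the lists fell.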

How the data were processed

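RNA of sorted stellate cells from 8 samples, 4 knockout and 4 control, was hybridised to Affymetrix Mouse 1.0ST arrays, 1 for each sample, from 150 ng of RNA. The values are deposited log2 expression values, 1 for each probe set, normalized by the authors with the Robust Multichip Algorithm (RMA), per the submitters' processing notes and the labelling protocol; no version, annotation, scan date or batch is stated in those labels, and no batch was tested. The number of arrays limits the precision.

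Of 35556 probe sets, 21789 had 1 gene symbol in the platform annotation, 1621 had several and 12146 had none listed. A look-up of gene identifiers among RefSeq genes changed 0 of 21698 symbols. The probe set with the highest mean stood for its gene, which gave 19938 genes. Knockout minus control was tested two-sided in limma 3.58.1 (lmFit, eBayes; R 4.3.3) with no covariate and no filter, and p-values were adjusted after Benjamini and Hochberg over all genes, with 0.05 as the threshold. For the 6 chosen genes only the difference and its standard error were used.

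The members, the 9 pathway lists (136 genes, 123 measured), the 7 marker lists and the alternatives were chosen with earlier results of these data known. Named genes were the 6 members, Lhx2, up to 4 genes past the threshold in each list (or its largest difference), the 5 genes nearest to each receptor and the first marker of each cell type; Reln, Hand2, Hgf, Eln, Dpt, Cd68, Clec4g, Pmvk, Sc5d, Dhcr7 and Adcy5 complete a count, and Rxrb, Rxrg, Abcb4, Abcc2, Fgf15, Fabp6, Cyp7a1, Slc10a1, Nr1h3 and Vdr were added for their role after their values were seen. On simulated data with the means and spreads of the 19938 genes of this comparison, 62% of 50 genes with a log2 change of 0.5, 98% of 50 changed by 1 and 100% of 50 each changed by 2 and 3 were recovered, with 12 false calls (6.25% of calls). Alternatives were median centring, quantile normalization, eBayes with trend and robust fitting, averaging a gene's probe sets, each probe set on its own, a filter on dim genes, each array left out in turn, and the fit without control 1 and control 4.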

Additional observations from a re-analysis of the deposited data

Results flagged for a closer look

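In 3 of 86 groups of 4 arrays (43 genes, each in 2 groups), 1 array lay far from the other 3 by Dixon's gap criterion, which chance alone meets in about 1 of 20 groups. Nr1h4 in control 1 was 12.22, below the other control arrays at 12.34 to 12.36, a gap that is small beside the distance to the knockout arrays. Atp8b1 in control 2 was 10.91, above the other control arrays at 10.84. Fdft1 in control 2 was 7.83, below the other control arrays at 8.08 to 8.11.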

How the results depend on the processing

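The differences of Nr1h4 and Nr1h5 stayed negative under every alternative run, from -1.58 to -1.52 and from -2.24 to -2.00 when 1 array at a time was left out, and those of Nr0b2 (-0.11 to 0.06), Slc51a (-0.15 to 0.02), Slc51b (-0.03 to 0.02) and Gpbar1 (-0.02 to 0.08) stayed near 0. Each of the 6 genes has 1 probe set, so the choice of probe set had no effect, and the filter on dim genes left no value for Nr0b2, Slc51a and Slc51b. Without control 1 and control 4, a fit with fewer arrays, 371 genes were higher and 405 lower, against 749 and 723 with all arrays. The same fit left 2 genes higher of the lists to lanosterol and from lanosterol to cholesterol and 0 lower of the partners of nuclear receptors, FXR targets, transporters, partners of SHP and cyclic AMP genes. The lower transporter was also lost with trend and robust fitting (0) and with the filter (0); the cyclic AMP genes had 4 lower after quantile normalization and 1 with the mean of probe sets, and the cause was not tested. With 1 array left out, the number lower ranged from 0 to 1 for the partners of nuclear receptors and for the FXR targets, was 0 throughout for the transporters and ranged from 1 to 3 for the cyclic AMP genes, and 3 to 6 genes were higher from lanosterol to cholesterol, with 502 to 790 higher and 487 to 677 lower over all genes. No result reversed its direction past the threshold. No paired analysis was possible because the groups share no replicate number.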
